A study of Mus musculus with 2 samples.

Results

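The effector cytokine genes *Ifng*, *Il4*, *Il2* and *Tnf* were measured in CD45+ leukocytes of mouse liver by single-cell RNA-Seq. They were taken by gene symbol and are 4 of the 28692 genes in the count tables. To ask how loss of bacteria alters hepatic immune cells, 1 library was made from mice given broad-spectrum antibiotics and 1 from vehicle-treated mice. The series' design text gives 1 week of treatment, and the methods describe it as a minimum. The drinking water of antibiotic-treated mice held ampicillin and metronidazole at 1 mg/mL each, and neomycin and vancomycin at 0.5 mg/mL each. Vehicle-treated mice received none of these drugs, and all mice were 6-week-old females. Neither their strain nor the number of mice pooled in a library is stated in the labels. CD45+ cells were sorted by FACS and captured with a 3′ kit that tags each captured transcript with a unique molecular identifier (UMI), so 1 UMI stands for 1 captured transcript.

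IFN-γ, the product of *Ifng*, activates macrophages and raises antigen presentation. IL-4, the product of *Il4*, acts on macrophages and drives class switching of B cells to IgE, IL-2 drives the growth of T cells and natural killer (NK) cells, and TNF is an early inflammatory signal made by both myeloid cells and lymphocytes. The mouse liver is rich in invariant natural killer T (iNKT) cells, which recognize glycolipids on CD1d and, in mice, carry *Ifng* and *Il4* transcripts before they are stimulated, so that both proteins can be released quickly.

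The mRNAs of *Ifng*, *Il2* and *Tnf* carry AU-rich elements in the 3′ untranslated region. Proteins of the ZFP36 family bind such elements and speed the decay of the transcript. They are shown because these genes share them although the rule that chose the genes did not use them. Each stretch below holds 30 bases of that region, 5′ to 3′ on the gene's own strand, from GENCODE vM21 transcripts on mouse build GRCm38, at chr10:118445330-118445359, chr3:37121040-37121069 and chr17:35199679-35199708. Capitals mark the pentamer ATTTA.
Ifng: aacctATTTAttaatATTTAaaactATTTA
Il2: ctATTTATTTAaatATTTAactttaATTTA
Tnf: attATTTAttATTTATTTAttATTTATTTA
The 3′ untranslated region of *Ifng* held 6 ATTTA in 631 bases. There were 7 in the 581 bases of *Il2* and 8 in the 764 bases of *Tnf*. The median over 19534 genes was 1. By density, only 1.0% of those genes reached the value of *Ifng*, 0.45% that of *Il2* and 0.722% that of *Tnf*. Each of the 3 was thus denser in ATTTA than nearly all other genes.

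*Ifng* (ENSMUSG00000055170) spans chr10:118441046-118445892 on the plus strand. *Il4* (ENSMUSG00000000869) spans chr11:53602982-53618669, *Il2* (ENSMUSG00000027720) chr3:37120523-37125959 and *Tnf* (ENSMUSG00000024401) chr17:35199381-35202007, all 3 on the minus strand. *Il2* overlaps *Adad1*, which lies on the opposite strand and was counted separately. The sources used here do not say whether strand was used in counting, so UMIs from the shared stretch are uncertain. *Ifng* overlaps *Gm49751*, a gene on the same strand that the tables do not count. The promoters of *Ifng* and *Il4*, the members with the most UMIs, are shown because their levels differed between the libraries in unlike ways. They run from 250 bases before to 50 bases after the transcription start in RefSeq (GRCm38.p6), at chr10:118440796-118441095 and chr11:53618616-53618915, 5′ to 3′ on the gene's strand. Capitals mark the NFAT core GGAAA, or TTTCC where it lies on the other strand, the TATA box TATAAA and the GATA motif GATAA.
Ifng promoter: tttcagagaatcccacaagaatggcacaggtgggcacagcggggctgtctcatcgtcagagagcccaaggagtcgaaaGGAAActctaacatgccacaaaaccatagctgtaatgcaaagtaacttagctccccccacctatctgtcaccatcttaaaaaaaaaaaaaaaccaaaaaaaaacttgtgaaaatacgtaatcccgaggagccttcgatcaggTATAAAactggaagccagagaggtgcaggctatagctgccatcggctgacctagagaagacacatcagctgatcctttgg
Il4 promoter: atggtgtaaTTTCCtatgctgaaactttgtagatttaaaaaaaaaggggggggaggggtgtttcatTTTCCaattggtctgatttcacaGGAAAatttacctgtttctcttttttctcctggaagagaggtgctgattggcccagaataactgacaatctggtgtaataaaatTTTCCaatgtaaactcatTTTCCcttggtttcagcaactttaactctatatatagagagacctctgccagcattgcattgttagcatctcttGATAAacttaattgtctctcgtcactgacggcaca
Both strands were searched. The *Ifng* promoter held 1 NFAT core and 1 TATAAA, and the *Il4* promoter held 5 NFAT cores and 1 GATAA. The promoters of *Il2* and *Tnf*, each with 1 TATAAA, held 2 and 3 NFAT cores. Of 32851 promoters of the same length, 61.3% held at least 1 NFAT core, 13.6% TATAAA and 25.4% GATAA. The AP-1 motif TGANTCA (7.81% of promoters), the NF-κB consensus (0.411%), the T-box motif GGTGTGA (3.98%) and the cyclic AMP response element TGACGTCA (1.79%) had no match in any of the 4. The NF-κB consensus contains the NFAT core on the other strand. These matches describe letters in the window and are not evidence of binding.

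Barcodes with at least 1500 UMIs, of which under 10% came from mitochondrial genes, were called cells. There were 7050 in the antibiotic library and 9002 in the vehicle library, at a median of 3331 and 3515 UMIs. Cells held 85.55% and 85.74% of the 29811401 and 41474311 UMIs, and 93 cell barcodes occurred in both libraries. Cells were classed by UMIs in a fixed order: NK cells by *Ncr1* without CD3 genes, iNKT cells by *Trav11*, other NKT-like cells by *Trac* with *Cxcr6*, CD8 T cells by *Cd8b1* with *Trac*, other T cells by 2 *Trac* UMIs without *Cxcr6*, and B cells by 2 *Cd79a* UMIs without *Cd3e*. A 3′ library rarely reads a variable segment, so the other NKT-like class can hold iNKT cells without a *Trav11* UMI as well as other *Cxcr6*-expressing T cells. *Zbtb16*, the NKT lineage factor, was at 49.8 UMIs per 1000000 UMIs (CPM) in antibiotic and 50.5 CPM in vehicle other NKT-like cells, against 24.7 and 24.3 CPM in other T cells, and CD45 itself (*Ptprc*) was at 464 and 447 CPM. Other NKT-like cells made up 52.0% of antibiotic and 36.2% of vehicle cells, iNKT cells 8.53% and 3.72%, and B cells 18.2% and 32.1%. Each group is a single library, so no test was possible. A difference between the groups has no replicate check and cannot be told apart from a difference between mice, captures or libraries. Intervals are exact 95% intervals (Poisson for levels, conditional binomial for ratios of UMI counts, Clopper-Pearson for shares). They cover the error of counting alone.

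Over all cells, *Ifng* was lower in the antibiotic library, *Il4* was slightly higher, and *Il2* and *Tnf* differed by less than counting error. *Ifng* was at 29.7 CPM (27.6 to 31.9, 757 UMIs) in antibiotic cells and 52.6 CPM (50.3 to 55.1, 1872 UMIs) in vehicle cells, a ratio of antibiotic over vehicle of 0.564 (0.518 to 0.614). *Il4* was at 50.7 CPM (1292 UMIs) and 44.1 CPM (1568 UMIs), a ratio of 1.15 (1.07 to 1.24). The ratio was 0.959 (0.832 to 1.10) for *Il2*, at 13.2 CPM in antibiotic and 13.8 CPM in vehicle cells, and 1.03 (0.893 to 1.18) for *Tnf*, at 14.2 and 13.8 CPM. With 1.5-fold as the bound, 1 of the 4 members (*Ifng*) was lower and 0 were higher. Among the 12753 genes with at least 20 UMIs, 15.2% were as much lower and 6.47% as much higher. The order for *Il4* rested on the class mix: with antibiotic cells weighted to the class mix of the vehicle library, an alternative chosen after seeing the data, its level was 38.3 CPM against 44.1 CPM in vehicle cells, a log2 ratio of -0.20 in place of 0.20.

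Other NKT-like cells were the largest source of transcripts of every member. This class held 70.15% of *Ifng* UMIs in the antibiotic and 70.2% in the vehicle library, although it took 57.5% and 44.0% of all UMIs. For *Il4* it held 78.8% and 83.7%, and for *Tnf* 67.0% and 60.1%. For *Il2* it held 59.9% (54.5 to 65.2) and 50.2% (45.7 to 54.7), little above its part of all UMIs. iNKT cells added 13.7% and 9.89% of *Il4* UMIs, and NK cells only 4.62% and 4.43% of *Ifng* UMIs. B cells, which should lack *Ifng*, *Il4* and *Il2*, were taken as the background. Whether all *Il2* UMIs of B cells were background was not tested. Against the level in B cells, other NKT-like cells were higher in *Il4* by 71.2-fold in the antibiotic and 75.8-fold in the vehicle library and in *Ifng* by 22.3-fold and 18.0-fold. The margin was much smaller for *Il2*, at 2.02-fold (1.29 to 3.33) and 2.97-fold (2.14 to 4.21). For *Tnf*, which B cells can make, it was 5.08-fold and 6.13-fold.

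**Figure D1:**
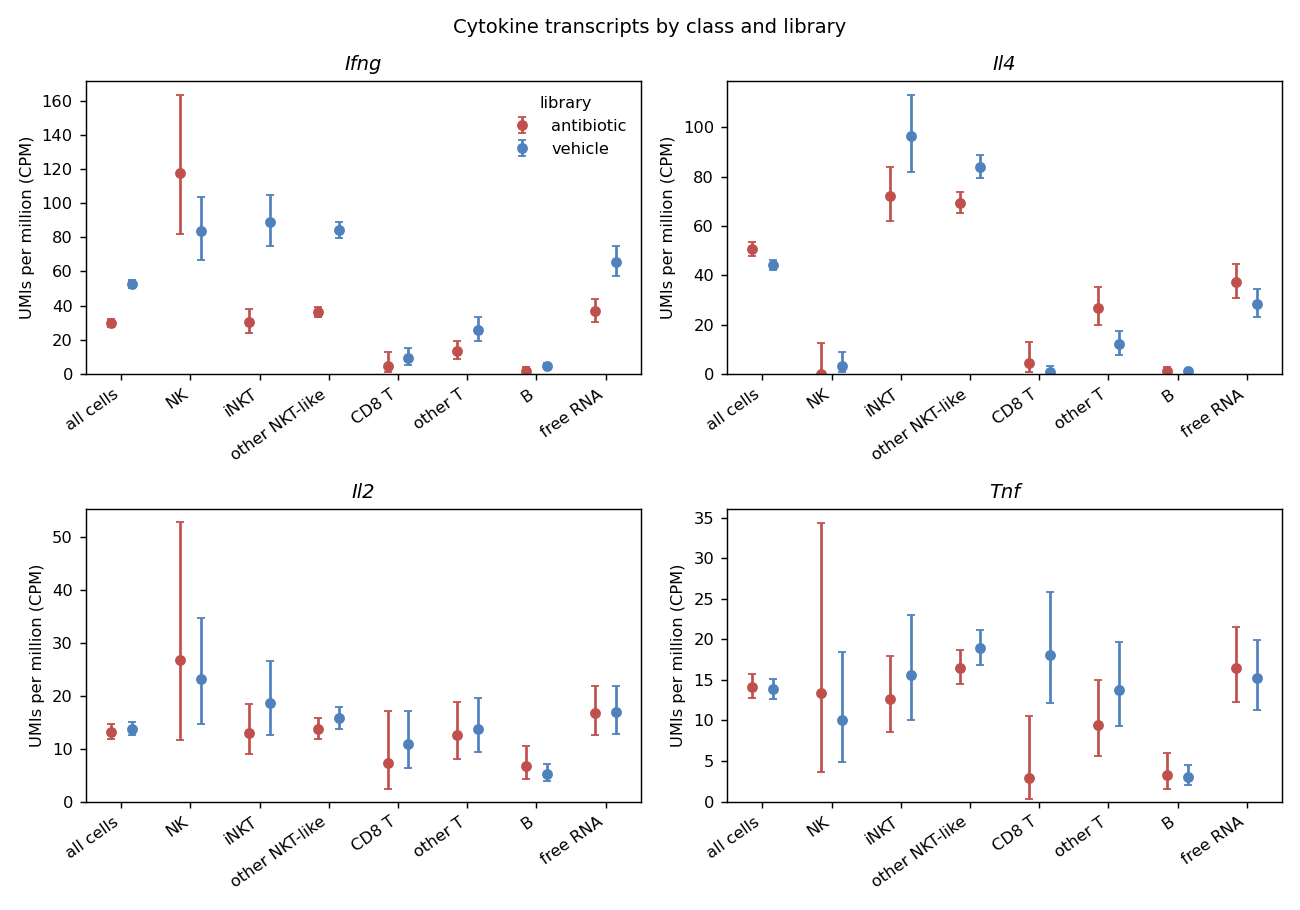
Level of each cytokine gene (UMIs per 1000000 UMIs, CPM; linear axes that differ between panels) in all cells, in the 6 gated classes and in free RNA (barcodes of 1 to 50 UMIs), with the antibiotic library in red left of the vehicle library in blue; points are summed counts and bars exact Poisson 95% intervals. *Ifng* in iNKT and other NKT-like cells sits at 30.2 and 36.2 CPM in the antibiotic library and at 89.1 and 84.1 CPM in the vehicle library, while *Il2* and *Tnf* intervals overlap between libraries in these 2 classes.

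*Ifng* showed the clearest difference of the 4. It was seen in both NKT-like classes, though not in them alone, as the values of other classes below show. Other NKT-like cells were at 36.2 CPM (33.2 to 39.4, 531 UMIs) in the antibiotic library and 84.1 CPM (79.6 to 88.7, 1314 UMIs) in the vehicle library, a ratio of 0.431 (0.389 to 0.477). iNKT cells were at 30.2 CPM (74 UMIs) and 89.1 CPM (143 UMIs), a ratio of 0.339 (0.253 to 0.452). Both classes were thus lower by more than 2-fold, whether or not a *Trav11* UMI had been seen. Among all genes measured in other NKT-like cells, 10.4% were at least 1.5-fold lower and 6.16% at least 1.5-fold higher, and in iNKT cells 10.5% and 9.02%. In each of these classes *Ifng* was the 1 member of 4 beyond 1.5-fold.

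Fewer NKT-like cells carried *Ifng* in the antibiotic library. After each cell was reduced to 1500 UMIs to equalize depth, 4.47% of antibiotic and 9.66% of vehicle other NKT-like cells had an *Ifng* UMI. The shares were 3.33% and 10.75% in iNKT cells, against 0.311% and 0.520% in B cells. At full depth (median 3630 and 4251 UMIs per cell), 9.96% and 25.2% of other NKT-like cells were positive, against 0.389% and 1.00% of B cells (median 2130.5 and 2507.5 UMIs). At that unequal depth, positive other NKT-like cells held 1.455 and 1.60 *Ifng* UMIs on average, and at least 2 *Ifng* UMIs were found in 63 antibiotic cells (1.72%) and 235 vehicle cells (7.21%), a ratio of shares of 0.239 (0.178 to 0.316). At least 5 *Ifng* UMIs were found in 11 antibiotic cells (0.300%) and 31 vehicle cells (0.951%), a ratio of shares of 0.316 (0.143 to 0.645). Bright cells were thus rarer in the antibiotic library, although its single top cell had 35 *Ifng* UMIs, against 28 in the vehicle library.

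**Figure D2:**
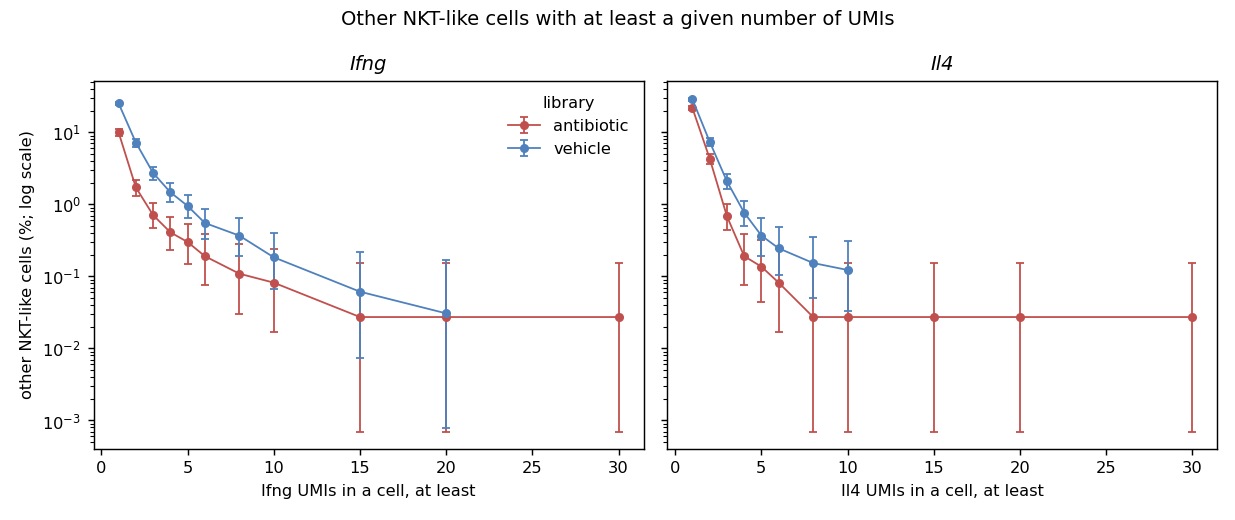
Share of other NKT-like cells (%, log axis) with at least a given number of *Ifng* (left) or *Il4* (right) UMIs, at full depth, in the antibiotic (red) and vehicle (blue) libraries; bars are Clopper-Pearson 95% intervals. The share with at least 2 *Ifng* UMIs is 1.72% in the antibiotic and 7.21% in the vehicle library, and the right end of each curve is a single cell or a few.

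Beyond the NKT-like classes the *Ifng* ratio was also below 1 in T cells. Other T cells, those without *Cxcr6*, were at 13.1 CPM (25 UMIs) in the antibiotic and 25.7 CPM (56 UMIs) in the vehicle library, a ratio of 0.511 (0.305 to 0.832), where 10.4% of genes were at least 1.5-fold lower. CD8 T cells held 3 and 15 *Ifng* UMIs, a ratio of 0.486 (0.0902 to 1.72) that counting error cannot tell from 1. B cells held 5 and 38 UMIs, a ratio of 0.347 (0.107 to 0.884), where 6.59% of genes were at least 1.5-fold lower and 8.95% at least 1.5-fold higher. *Ifng* in free RNA, taken from barcodes of 1 to 50 UMIs, moved the same way, at 36.5 CPM in the antibiotic and 65.7 CPM in the vehicle library. The *Ifng* level of B cells was 4.45% and 7.12% of that level, and that of the T cell receptor gene *Trac* was 4.21% and 4.48%. The part of free RNA in the B-cell ratio was not tested.

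NK cells, the other classic source of IFN-γ, gave no stable value. They were at 117.5 CPM (35 UMIs in 109 cells) in the antibiotic and 83.4 CPM (83 UMIs in 303 cells) in the vehicle library, a ratio of 1.41 (0.921 to 2.12). The share of positive NK cells went the other way, at 5.505% (6 cells) in the antibiotic and 13.9% (42 cells) in the vehicle library after thinning. At full depth 11 antibiotic and 66 vehicle NK cells held any *Ifng*. In the antibiotic library 2 cells carried 23 of the 35 UMIs (65.7%), with up to 14 in 1 cell, while no vehicle cell carried more than 3. The NK class also held B-cell transcripts, with the 4 B-cell markers summing to 916 CPM in the antibiotic and 1017 CPM in the vehicle library, and their part in the *Ifng* values was not tested. In NK cells 14.3% of genes were at least 1.5-fold higher and 12.9% at least 1.5-fold lower, and neither of the 2 members with at least 20 UMIs there, *Ifng* and *Il2*, passed a bound.

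Within the antibiotic library, NK cells were at an *Ifng* level 3.25-fold (2.24 to 4.57) that of other NKT-like cells, but this rests on the 2 cells with 23 UMIs, and by share of thinned cells the classes were at 5.505% and 4.47%. Other NKT-like cells did not differ from iNKT cells beyond counting error. In the vehicle library iNKT, other NKT-like and NK cells did not differ beyond counting error, at 89.1, 84.1 and 83.4 CPM, and NK cells stood 3.24-fold (2.28 to 4.64) above other T cells. A gamma-delta gate took cells outside the gated classes with *Trdc* but no *Trac*. Its cells were at 57.4 CPM (25 UMIs) in the antibiotic and 65.4 CPM (48 UMIs) in the vehicle library. Their ratio was 0.877, on few UMIs. The gate asked for no CD3 gene, so it can hold cells other than gamma-delta T cells. Over all cells outside the classes, the 6 NK markers summed to 1972 and 3897 CPM.

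**Figure D3:**
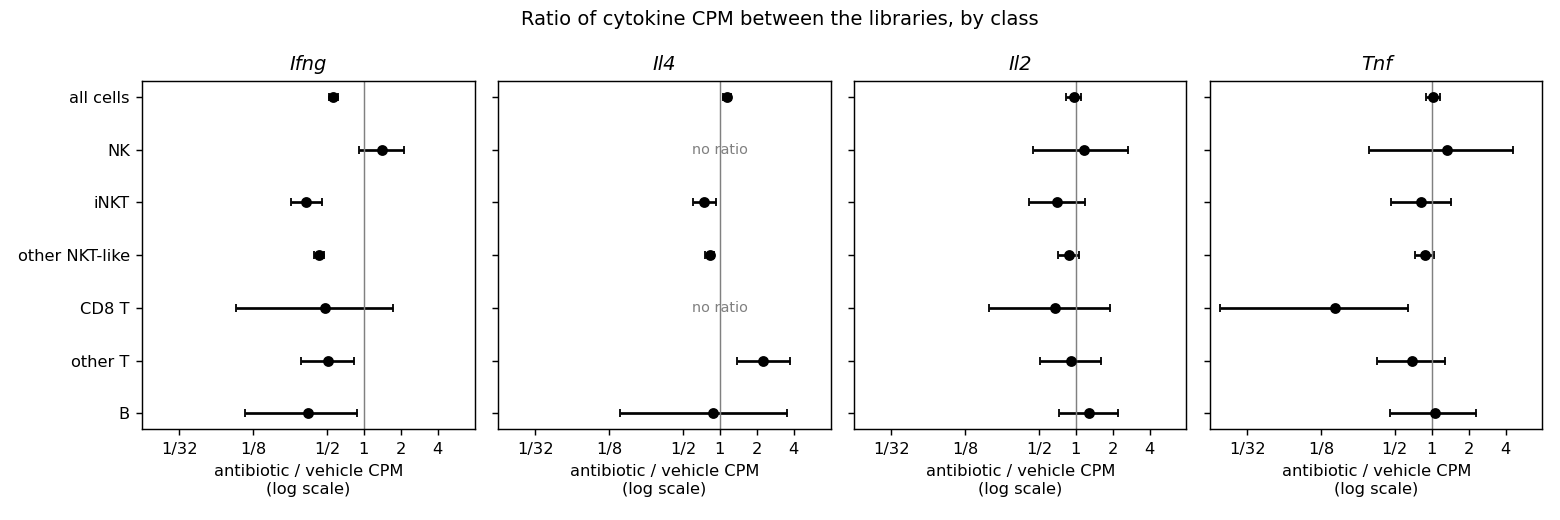
Ratio of antibiotic over vehicle CPM (log axis) for each cytokine gene and class, with exact conditional 95% intervals for counting error; the line marks 1, and no ratio is drawn where both libraries had 3 UMIs or fewer. *Ifng* lies at 0.339 in iNKT and 0.431 in other NKT-like cells, and *Il4* at 0.748 and 0.826 in the same classes but at 2.24 in other T cells.

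*Il4* was the most NKT-restricted member. It was at 69.4 CPM (65.2 to 73.8, 1018 UMIs) in antibiotic and 84.0 CPM (79.5 to 88.7, 1313 UMIs) in vehicle other NKT-like cells, and at 72.3 CPM (177 UMIs) and 96.6 CPM (155 UMIs) in iNKT cells. The ratios were 0.826 (0.760 to 0.897) and 0.748 (0.600 to 0.935), so *Il4* was lower than in vehicle by a smaller factor than *Ifng* in the same cells. Thinned to equal depth, 9.19% and 11.9% of other NKT-like cells and 9.82% and 14.3% of iNKT cells had an *Il4* UMI, against 0.233% and 0.104% of B cells. At full depth, where antibiotic cells were shallower, 158 antibiotic cells (4.31%) and 241 vehicle cells (7.39%) of the other NKT-like class had at least 2 *Il4* UMIs. A single antibiotic cell held 32 *Il4* UMIs, against a highest value of 14 in the vehicle library.

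In other T cells *Il4* went the opposite way. It was at 26.8 CPM (51 UMIs) in the antibiotic and 11.9 CPM (26 UMIs) in the vehicle library, a ratio of 2.24 (1.37 to 3.75), and 4.34% and 1.53% of cells were positive after thinning. In this class 9.8% of all genes were at least 1.5-fold higher, and *Il4* was the 1 member of 4 there, while *Ifng* was the 1 that was lower. *Klrb1c*, which encodes the NK receptor NK1.1, was also higher in antibiotic other T cells, at 293 CPM against 98.8 CPM in vehicle. A *Klrb1c* UMI was seen in 44.2% and 15.9% of them. This was not particular to other T cells: *Klrb1c* was at 576 and 322 CPM in iNKT and 588 and 312 CPM in other NKT-like cells, where *Il4* was lower. *Zbtb16* hardly differed in other T cells, at 24.7 and 24.3 CPM. The part of these markers in the *Il4* difference was not tested. *Il4* was near 0 in the other gated classes. NK cells held 0 UMIs in the antibiotic library, where 3 UMIs would be 10.1 CPM and the exact upper bound is 12.4 CPM, and 3 in the vehicle library. CD8 T cells held 3 and 1 UMIs, and B cells 3 and 9. Ungated cells were at 16.5 CPM of *Il4* (40 UMIs) in the antibiotic and 11.4 CPM (61 UMIs) in the vehicle library. Cells of the gamma-delta gate were at 25.25 CPM (11 UMIs) and 23.2 CPM (17 UMIs), against 26.8 and 11.9 CPM in other T cells. In both libraries iNKT and other NKT-like cells did not differ in *Il4* beyond counting error, and other NKT-like cells stood 2.59-fold above other T cells in the antibiotic library and 7.03-fold in the vehicle library.

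*Il2*, the T cell growth factor, was low everywhere and did not differ between libraries beyond counting error in any gated class. Other NKT-like cells were at 13.8 CPM (202 UMIs) in the antibiotic and 15.7 CPM (246 UMIs) in the vehicle library, a ratio of 0.875 (0.723 to 1.06), with 2.48% and 2.61% of cells positive after thinning. A second random thinning gave 1.96% and 2.82%, a ratio of 0.696 (0.504 to 0.958), so the share moved with the draw. iNKT cells were at 13.1 and 18.7 CPM (32 and 30 UMIs) and other T cells at 12.6 and 13.8 CPM (24 and 30 UMIs). No cell of any class held more than 3 *Il2* UMIs. Against this, 1.09% of antibiotic and 0.693% of vehicle B cells had an *Il2* UMI after thinning, and the B-cell level was 40.8% and 31.3% of that in free RNA, a far larger part than for *Ifng* or *Il4*. With the B-cell level subtracted, the log2 ratio in other NKT-like cells was -0.59 in place of -0.19.

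For *Il2*, classes next to each other in order mostly did not differ, but classes further apart did, and NK cells split by subset. NK cells were above B cells by 3.94-fold (1.51 to 9.25) in the antibiotic and 4.37-fold (2.51 to 7.41) in the vehicle library. In the antibiotic library no class differed from the next in order beyond counting error, and in the vehicle library only CD8 T cells stood above the next class, B cells, by 2.05-fold (1.11 to 3.63). NK cells with *Cxcr6* and no *Eomes*, the pattern of liver-resident innate lymphoid cells, held 5 *Il2* UMIs in 38 antibiotic cells (44.1 CPM) and 17 UMIs in 68 vehicle cells (65.5 CPM). NK cells with *Eomes* and no *Cxcr6*, the conventional type, held 0 UMIs in 23 and 1 UMI in 79 cells. In the antibiotic library the 0 UMIs of the 23 *Eomes* cells have an exact upper bound of 62.7 CPM (3 UMIs would be 51.0 CPM), so the subsets cannot be told apart. Within the vehicle library the *Cxcr6* subset was 17.0-fold higher, with an interval of 2.66 to 710.3. Cells of the gamma-delta gate were at 27.5 CPM (12 UMIs) and 30.0 CPM (22 UMIs), above other T cells in both libraries by value.

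*Tnf* also differed by less than counting error in the main NKT-like class. Other NKT-like cells were at 16.5 CPM (242 UMIs) in the antibiotic and 18.9 CPM (295 UMIs) in the vehicle library, a ratio of 0.874 (0.734 to 1.04), with 2.29% and 2.64% of cells positive after thinning. iNKT cells were at 12.7 and 15.6 CPM (31 and 25 UMIs), and other T cells at 9.46 and 13.8 CPM (18 and 30 UMIs). The interval of each ratio held 1. In CD8 T cells *Tnf* was lower on few counts, with 2 UMIs in 161 antibiotic cells (2.93 CPM) and 30 UMIs in 352 vehicle cells (18.1 CPM), a ratio of 0.162 (0.0188 to 0.639). The vehicle UMIs came from 20 cells. Some markers of other cells moved with it. In CD8 T cells the plasmacytoid dendritic cell gene *Siglech* had 0 antibiotic and 146 vehicle UMIs, and the sinusoidal endothelial gene *Clec4g* 0 and 43. The 6 myeloid markers summed to 174 and 317.5 CPM. The 4 endothelial markers, *Clec4g* among them, differed less as a sum, at 57.1 and 68.1 CPM. The part of these markers in the *Tnf* ratio was not tested. In this class 13.3% of genes were at least 1.5-fold lower and 9.58% as much higher, and *Tnf* was the 1 of the 2 members with at least 20 UMIs there that passed the lower bound.

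Ungated cells, which include the myeloid cells, had more *Tnf* in the antibiotic library, at 22.3 CPM (54 UMIs) and 14.15 CPM (76 UMIs), a ratio of 1.58 (1.09 to 2.27). The share of ungated cells with *Tnf* was 2.50% and 2.39%, and 10 cells held 63.0% of the antibiotic UMIs. Within them, 46 antibiotic and 230 vehicle cells passed a myeloid gate on *Lyz2*, *Cst3* and *Siglech*. The gate held 10 *Tnf* UMIs in 4 antibiotic cells and 15 in 12 vehicle cells, 38.8 and 12.1 CPM, a ratio of 3.21 (1.29 to 7.65) that rests on those 4 cells. In cells of the gamma-delta gate *Tnf* was at 43.6 CPM (19 UMIs in 10 cells) and 27.3 CPM (20 UMIs in 17 cells), a ratio of 1.60 whose interval holds 1. Cells of the myeloid gate thus held 10 of 361 *Tnf* UMIs in the antibiotic and 15 of 491 in the vehicle library. They also held few of all UMIs, 257822 of 25503287 and 1243081 of 35561853. Their small part of the *Tnf* UMIs is therefore no sign of a low level per cell.

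The NKT-like classes, iNKT and other NKT-like cells pooled, were next divided by single genes. *Icam1*, an adhesion molecule induced by inflammatory signals, separated *Ifng* most clearly. Cells with an *Icam1* UMI (632 antibiotic and 763 vehicle cells) were at 62.7 and 132.2 CPM of *Ifng*, and cells without (3635 and 2833) at 30.1 and 70.15 CPM. Cells with *Icam1* were thus higher by 2.08-fold (1.74 to 2.49) in the antibiotic and 1.88-fold (1.69 to 2.10) in the vehicle library. The antibiotic over vehicle ratio of *Ifng* was nearly the same on both sides, 0.474 with and 0.429 without *Icam1*. It lay between 0.414 and 0.500 in all 6 parts made by *Icam1*, *Tnfrsf9* and *Cd4*. Cells with a UMI of the dividing gene were deeper than those without, and no thinning was applied to the CPM.

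*Il4* and *Tnf* followed other lines. *Il4* was 1.16-fold (0.9996 to 1.35) higher with *Icam1* in the antibiotic and 1.25-fold (1.11 to 1.40) in the vehicle library, and with *Tnfrsf9*, which encodes the costimulatory receptor 4-1BB, it was at a ratio of 0.991 and 0.762 (0.612 to 0.940). *Tnf* was instead higher with *Tnfrsf9*, at 29.25 CPM with and 15.1 CPM without in the antibiotic library, 1.94-fold (1.28 to 2.84). In the vehicle library the same division gave 24.65 and 18.0 CPM, 1.37-fold (0.934 to 1.95). By *Cd4*, the coreceptor of a part of the NKT cells, *Tnf* in the antibiotic library was at 8.94 CPM (24 UMIs) with and 17.25 CPM (249 UMIs) without, a ratio of 0.518 (0.326 to 0.789). In the vehicle library no such difference was seen, at 19.7 and 18.2 CPM, a ratio of 1.08 (0.826 to 1.40). Between the libraries, *Tnf* in cells with *Cd4* was at a ratio of antibiotic over vehicle of 0.454 (0.275 to 0.726). In cells without *Tnfrsf9* it was 0.838 (0.703 to 0.998), and in the other parts the interval held 1. The share of *Cd4* cells with *Tnf* after thinning was 2.05% and 2.44%, a ratio of 0.842 (0.370 to 1.85). In the antibiotic library the share without *Cd4* was 2.23%, close to the 2.05% with it. Whether the antibiotic and vehicle divisions differ from each other was not tested. *Il2* did not differ beyond counting error on any of the 3 divisions in either library.

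**Figure D4:**
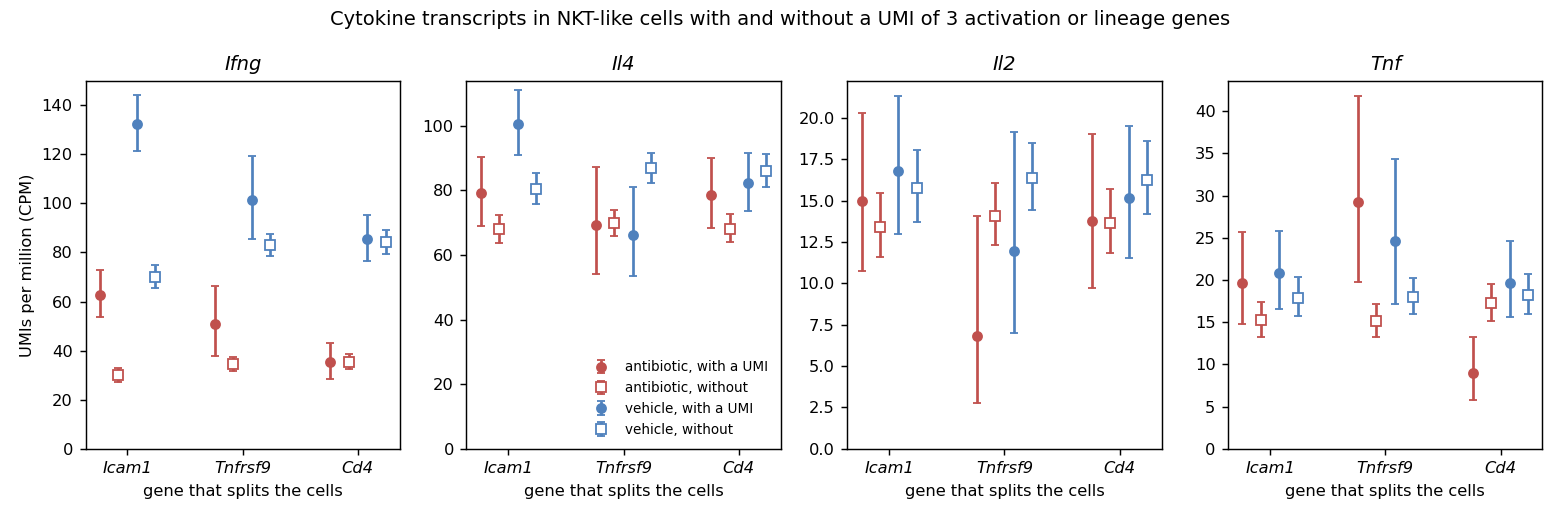
Level of each cytokine gene (CPM, linear axes that differ between panels) in NKT-like cells with (filled circles) and without (open squares) a UMI of *Icam1*, *Tnfrsf9* or *Cd4*, with the antibiotic library in red left of the vehicle library in blue; bars are exact Poisson 95% intervals. *Ifng* is higher with *Icam1* in both libraries (62.7 against 30.1 CPM and 132.2 against 70.15 CPM), and *Tnf* is lower with *Cd4* in the antibiotic library (8.94 against 17.25 CPM). The shares of these antibiotic cells with *Tnf* after thinning, not drawn, were close, at 2.05% and 2.23%.

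Since NKT cells can carry several cytokine transcripts, it was next asked how often members met in 1 cell. After thinning, 17.1% of antibiotic and 24.4% of vehicle other NKT-like cells held a UMI of any member, against 2.02% and 1.59% of B cells. At least 2 members were seen in 1.34% and 2.39% of other NKT-like cells, 3 members in 1 cell of each library and all 4 in 0 cells. *Ifng* and *Il4* met in 24 antibiotic cells, where the product of their shares gives 15.1, and in 41 vehicle cells, where it gives 37.6. The quotients were 1.59 (1.02 to 2.37) and 1.09 (0.783 to 1.48). Without thinning they were 1.37 (1.12 to 1.65) and 1.14 (1.01 to 1.29), where depth varied between cells. Of *Ifng*-positive cells, 14.6% and 13.0% also had *Il4*. The other 5 pairs had quotients of 0.480 to 1.33 in the antibiotic and 0.592 to 1.37 in the vehicle library on 1 to 14 shared cells, all with intervals that hold 1. At full depth *Ifng* with *Tnf* in the vehicle library also had an interval above 1, at 1.28 (1.02 to 1.58). Most *Ifng*-positive cells thus had no *Il4* UMI at this depth. In other NKT-like cells the pair met more often than the product of the shares gives in the antibiotic library, and at full depth in both libraries. With NK and iNKT cells added, the thinned quotients were 1.51 (0.988 to 2.22) and 1.09 (0.802 to 1.44), and both intervals held 1. In iNKT cells alone they were 1.02 (0.123 to 3.68) and 1.36 (0.546 to 2.80), on 2 and 7 shared cells.

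**Figure D5:**
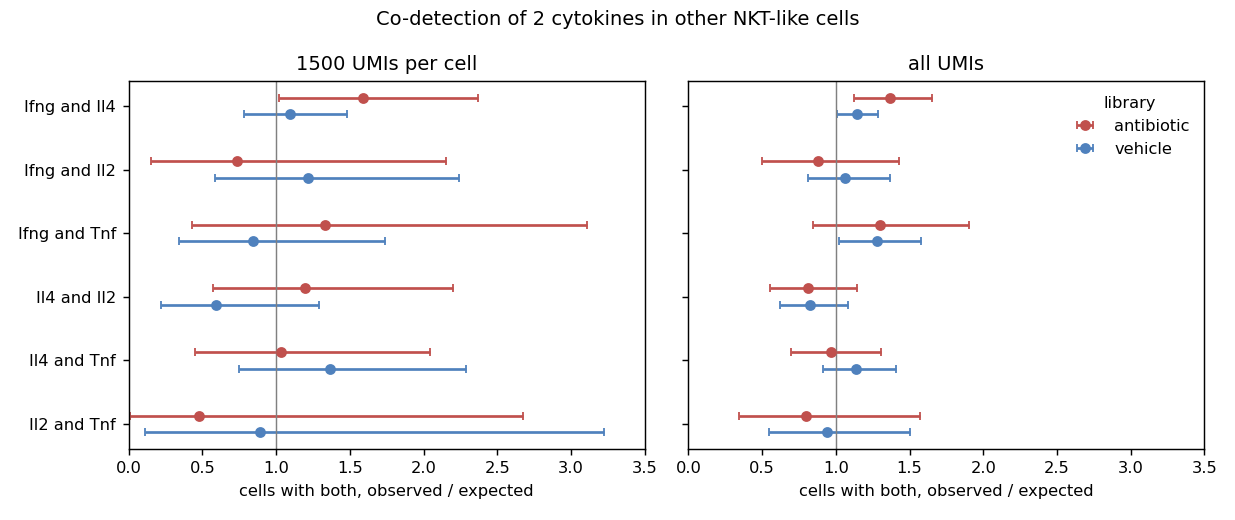
Other NKT-like cells that hold both genes of a pair, as a quotient of the number expected from the product of the 2 shares (linear axis), after thinning to 1500 UMIs per cell (left) and at full depth (right), with the antibiotic library in red above the vehicle library in blue; bars are Poisson 95% intervals and the line marks 1. *Ifng* with *Il4* is at 1.59 in the antibiotic and 1.09 in the vehicle library after thinning.

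Genes found more often in cytokine-positive than in cytokine-negative other NKT-like cells were ranked by the smaller of the quotients of both libraries, among genes in at least 10% of positive cells. A gene rarer than that in negative cells could enter only by being more frequent in positive ones, and the ranking is a description over cells of 2 libraries. With *Ifng*, the first of 1508 genes was *Icam1*, in 15.2% of positive and 5.83% of negative antibiotic cells and in 15.9% and 7.88% of vehicle cells. It entered in this way, as did *Etfa* and *Eed* named below, and without thinning *Icam1* ranked 3. *Nfkbia*, the NF-κB inhibitor that NF-κB itself induces, followed at 32.3% and 19.3% of antibiotic and 32.1% and 19.8% of vehicle cells. *Etfa*, the early activation marker *Cd69* and *Eed* came next, with *Cd69* at 15.9% and 10.2% of antibiotic and 21.3% and 13.2% of vehicle cells. The median quotient over the 1508 genes was 0.974. Without thinning *Cd69* ranked 31, *Eed* 120, *Nfkbia* 166 and *Etfa* 2024, so of these 5 only *Icam1* stayed near the top.

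With *Il4* the first 5 were *Psen2*, the phosphatase gene *Dusp1*, *Bscl2*, *Wdr43* and *Tbx21*, with quotients of 1.30 to 1.35 for the smaller library. For each of these 5 the interval of the quotient held 1 in at least 1 library. *Psen2*, *Bscl2* and *Wdr43* could enter only by being more frequent in positive cells. *Tbx21*, which encodes the *Ifng*-activating factor T-bet, was in 14.8% of *Il4*-positive and 10.2% of negative antibiotic cells, and in 17.7% and 13.7% of vehicle cells. Their ranks without thinning ran between 44 for *Dusp1* and 1030 for *Psen2*. With *Il2* the first 5 were *Stxbp2*, *Cd7*, *Traf2*, *Med8* and *Fcer1g*. *Stxbp2*, *Traf2* and *Med8* could enter only by being more frequent in positive cells, and in the antibiotic library this held for *Fcer1g* too. *Cd7*, a surface molecule of T and NK cells, was in 36.3% of *Il2*-positive and 17.6% of negative antibiotic cells and in 48.2% and 22.45% of vehicle cells, and *Fcer1g*, an Fc receptor adaptor of innate lymphocytes, in 12.1% and 4.42% and in 21.2% and 10.9%. Without thinning *Cd7* and *Fcer1g* ranked 4 and 5, but *Med8*, *Stxbp2* and *Traf2* ranked 286, 514 and 536. With *Tnf* the first 5 were *Katna1*, *Gpatch8*, *Med1*, *Tm9sf2* and *Ube2h*, and with *Il4* in iNKT cells *Flii*, *Polr3gl*, *Bcl2l11*, *Man1a2* and *Ube2w*. These 2 lists rest on few positive cells, and every gene in them could enter only by being more frequent in positive cells. Their ranks without thinning were between 368 for *Med1* and 2533 for *Katna1* in the first list and between 55 for *Ube2w* and 2859 for *Flii* in the second.

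Genes that act upstream and downstream of the members were then compared in other NKT-like cells, where the median log2 ratio over 11225 genes was -0.02 and, as above, 10.4% of genes were at least 1.5-fold lower and 6.16% at least 1.5-fold higher. Of the receptors, 8 of 9 were measured, with 1 at least 1.5-fold lower, 0 higher and a median of -0.11, a share lower near that of all genes. *Il2rb*, the IL-2 receptor β chain, was at 482 CPM in antibiotic and 442 CPM in vehicle cells, *Ifngr1* at 383 and 286 CPM (ratio 1.34) and the common γ chain *Il2rg* at 246 and 298 CPM. The 1 lower gene was *Ifngr2*, the second IFN-γ receptor chain, at 2.11 and 5.12 CPM. Of 14 transcription factors, 1 was lower and 0 higher, with a median of -0.01, again no larger a share than among all genes. *Gata3*, which activates *Il4*, was at 116 and 93.4 CPM (ratio 1.24) and *Tbx21* at 83.5 and 94.6 CPM (ratio 0.882), while *Runx3* and *Maf* had ratios of 1.01 and 1.05. The lower 1 was *Eomes*, at 1.43 and 3.58 CPM. *Gata3*, *Tbx21*, *Runx3* and *Maf*, the most abundant of this list, thus stayed within 1.5-fold. *Fos* and *Junb*, given below with the activation genes, were lower by more than 1.5-fold.

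Of the 6 RNA-binding regulators of cytokine mRNA, 1 was at least 1.5-fold higher and 0 lower, against 6.16% and 10.4% of all genes. This was *Zfp36l2*, a member of the ZFP36 family that binds AU-rich elements like those printed above, at 346 CPM in antibiotic and 169 CPM in vehicle cells, a ratio of 2.045 (1.95 to 2.14). Its relatives *Zfp36* and *Zfp36l1* were at 38.8 and 75.2 CPM in antibiotic and 47.2 and 82.0 CPM in vehicle cells. *Elavl1*, which binds the same elements and stabilizes transcripts, was at 82.7 and 103 CPM. In the same cells the ratios of the members with printed elements were 0.431 for *Ifng*, 0.875 for *Il2* and 0.874 for *Tnf*. The part of *Zfp36l2* in these ratios was not tested. Of 14 signaling genes, 1 was lower and 0 higher, with a median of -0.06, against 10.4% lower and 6.16% higher among all genes. The lower 1 was *Gbp2*, an interferon-induced GTPase gene, at 33.8 CPM in antibiotic and 57.8 CPM in vehicle cells (ratio 0.585, 0.523 to 0.654). *Irf1* was at 105 and 139 CPM (ratio 0.757), and *Jak1*, *Nfkbia* and the TNF receptor adaptor gene *Traf1* had ratios of 1.13, 1.07 and 1.07.

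Of 21 other cytokines, 11 were measured in other NKT-like cells, with 5 lower, 1 higher and a median of -0.53, against 10.4% lower and 6.16% higher among all genes. Most were near the detection limit, and of the 5 with at least 50 UMIs, 1 was lower. This was *Lta*, which encodes lymphotoxin α, at 4.50 CPM in antibiotic and 7.36 CPM in vehicle cells. *Ltb*, the membrane anchor of lymphotoxin, was at 1047 and 1176 CPM, *Tgfb1* at 152 and 201 CPM, and *Csf2* at 4.97 and 7.17 CPM. *Il10* had 2 UMIs in the antibiotic and 0 in the vehicle library, and *Il13* had 11 and 27. Of 14 activation genes, 13 were measured, with 6 lower, 0 higher and a median of -0.48, against the same 10.4% and 6.16% of all genes. *Fos* was at 49.1 and 142.7 CPM (ratio 0.344), *Junb* at 278 and 492 CPM (ratio 0.565), *Irf8* at 49.4 and 76.0 CPM and *Cd69* at 79.5 and 110.9 CPM. *Egr1*, another early gene, had a ratio of 1.12, and *Myc* 1.49. The immediate early genes are also induced by tissue dissociation, and their part in the *Ifng* difference was not tested.

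Other values moved with the groups in the same cells. *Klrb1c* was at 588 CPM in antibiotic and 312 CPM in vehicle other NKT-like cells, and the summed level of 4 B-cell markers was 154 and 332 CPM, of 6 myeloid markers 184 and 383 CPM, of 4 hepatocyte markers 3.61 and 20.15 CPM and of 2 hemoglobin genes 4.97 and 337 CPM. The 6 NK markers summed to 772 and 823 CPM, but single ones moved apart, with *Gzma* at 92.4 and 347 CPM, *Klre1* at 72.7 and 127 CPM and *Ncr1* at 8.72 and 28.5 CPM. The CD8 chains were lower, *Cd8b1* at 28.6 and 76.1 CPM and *Cd8a* at 15.5 and 57.6 CPM. The median mitochondrial share was 2.03% and 1.70%. Depth was lower in antibiotic cells, and *Cxcr6*, which sets the gate, was at 911 and 1094 CPM. The part of each of these in the *Ifng* ratio was not tested.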

How the data were processed

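The data are 2 single-cell libraries (Chromium Single Cell 3′ v2) of FACS-sorted CD45+ mouse liver cells, 1 antibiotic and 1 vehicle. The authors deposited unnormalized UMI counts for all 737280 barcodes of the kit. Per the submitters' processing notes they were made with bcl2fastq and Cell Ranger on mm10. Their versions are not given in the sources used here. Of the gene identifiers, 98.8% were found in GENCODE vM21. That no filter on cells had been applied leaves the cell call to this step: 7050 and 9002 barcodes passed, and 1 and 13 were left out for mitochondrial UMIs. Levels are UMIs of a gene over all UMIs of a class, per 1000000 (CPM), so abundant genes that differ between libraries move every level. The median log2 ratio over all genes of a class lay between -0.03 and 0.08. A 3′ count depends on capture near the transcript end, so levels were not compared between genes.

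For shares, every cell was first thinned to 1500 UMIs (seed 1, repeated with seed 2). No ratio was formed where both libraries had 3 UMIs or fewer. Doublets were kept: 298 antibiotic (4.23%) and 716 vehicle cells (7.95%) held UMIs of 2 lineages, and they were left out in 1 alternative together with the 2% of cells with the most UMIs. The tools were scipy 1.17.1, numpy 2.4.6, pandas 2.3.3 and matplotlib 3.10.9 under Python 3.11.15. The measures were tested on simulated counts that were independent, as the intervals assume. UMIs of a gene are grouped in cells, which the simulation lacked, so intervals of levels and their ratios can be too narrow. The members, gene lists and gates were chosen with earlier results of these data known. Named genes are the 4 members, up to 4 genes per list with the highest mean CPM, and the 5 genes most associated with each member in a class with at least 30 positive cells in both libraries. *Ptprc*, *Klrb1c*, *Zbtb16*, *Cxcr6*, *Ifngr2*, *Eomes*, *Gbp2*, *Lta*, *Il10*, *Il13*, *Egr1*, *Myc*, *Siglech*, *Clec4g*, *Gzma*, *Klre1*, *Ncr1*, *Cd8a* and *Cd8b1* were named after their values were seen. A gene of the signaling list and a stretch of sequence are not reported here.

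Alternatives were cell minimums of 1000 and 2500 UMIs, a mitochondrial limit of 5%, gates raised by 1 UMI, another denominator, a mean over cells, subtraction of the B-cell level, removal of the 10 cells with the most UMIs of the gene, and shares in place of sums.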

Additional observations from a re-analysis of the deposited data

Results flagged for a closer look

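*Il4* differed between the libraries in opposite directions in 2 kinds of T cell. Its ratio of antibiotic over vehicle CPM was 2.24 in other T cells, on 51 antibiotic and 26 vehicle UMIs, but 0.748 in iNKT cells, on 177 and 155 UMIs, and 0.826 in other NKT-like cells, on 1018 and 1313 UMIs. No interval held 1, and the difference between the classes was not tested, since each group is 1 library.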

How the results depend on the processing

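No paired analysis was possible because each group is 1 library. All values here are log2 ratios of antibiotic over vehicle unless said otherwise. *Ifng* in other NKT-like cells (-1.22) kept its sign under all 10 alternatives, at -1.07 with a denominator free of ribosomal, mitochondrial, hemoglobin and immunoglobulin genes and -1.38 without the 10 cells with the most UMIs. In all cells (-0.83) these gave -0.70 and -0.99, and the vehicle class mix, chosen after seeing the data, gave -0.95. *Ifng* in NK cells (0.49) was 1.16 at 2500 UMIs, -4.06 without the top 10 cells and -1.33 as a share. Since 11 antibiotic and 66 vehicle NK cells held *Ifng*, removal of 10 from each had to leave almost none in the antibiotic library. *Il4* in all cells (0.20) was 0.31 as a mean over cells, 0.32 with the other denominator and -0.20 at the vehicle class mix, where its sign turned. *Il4* was -0.13 with the other denominator in other NKT-like cells (-0.28) and -0.93 with raised gates in iNKT cells (-0.42). *Il2* with the B-cell level subtracted was -0.41 in all cells (-0.06) and -0.59 in other NKT-like cells (-0.19). *Tnf* moved by less than its error in these 2 groups, between -0.08 and 0.16 and between -0.32 and -0.05. Over their alternatives, *Ifng* in iNKT cells lay between -1.83 and -1.39, *Ifng* in other T cells between -1.03 and -0.57 and *Il4* in other T cells between 0.96 and 1.82. As quotients of shares, *Flii* with *Il4* in iNKT cells and *Katna1* with *Tnf* were 0.871 and 0.985 without thinning. *Il4* in NK and CD8 T cells gave no ratio. Depth limits values outside the NKT-like classes, where *Il2* had at most 43, *Tnf* at most 30 and *Il4* at most 51 UMIs per gated class and library. The causes of these shifts were not tested.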

Other observations

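Barcodes of more than 50 but fewer than 1500 UMIs, below the cell call, also held the members. *Ifng* had 39 UMIs (36.2 CPM) in the antibiotic and 142 UMIs (58.0 CPM) in the vehicle library, close to the free RNA values of 36.5 and 65.7 CPM. *Il4* had 26 UMIs (24.2 CPM) and 84 UMIs (34.3 CPM), against 37.2 and 28.3 CPM in free RNA. *Il2* had 7 and 32 UMIs (6.50 and 13.1 CPM), and *Tnf* 12 and 33 UMIs (11.15 and 13.5 CPM).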
